A study of Mus musculus with 8 samples.

Results

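Oxidative phosphorylation was followed through 98 genes of mouse bone marrow derived macrophages, phagocytic immune cells grown from marrow. They are the protein-coding genes named Ndufa, Ndufb, Ndufc, Ndufs, Ndufv, Uqcr, Cox4i, Cox5, Cox6, Cox7, Cox8, Atp5, mt-Nd, mt-Co, mt-Cy or mt-Atp, with Sdha, Sdhb, Sdhc, Sdhd and Cyc1, that had a mean of at least 1 FPKM (fragments scaled by gene length and by library) over the 8 libraries. Such a name was borne by 108 of the 54532 genes listed, and 10 of these lay below that mean. The 98 members divide into 86 nuclear genes and 12 mitochondrial ones. The names also bring in 8 Ndufaf genes, which encode assembly factors and not subunits, as well as Cox7a2l, which joins complexes into supercomplexes, and Atp5s, a coupling factor. Just inside the minimum lay Ndufaf2 at 1.19 and Atp5s at 1.40 FPKM, and just outside it Cox6a2 at 0.870 and mt-Atp8 at 0.779 FPKM. All 98 members were tested, since each reached 1 FPKM in 2 or more libraries.

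The 4 groups were macrophages given PBS, the buffer control, or spermine, a natural polyamine, each before IFN-β (0 h) or after 3 h of this type I interferon. Each group holds 2 libraries, called library 1 and library 2 after the numbers in their titles. The labels give neither the doses nor the length of spermine treatment. Cells held for 3 h without IFN-β are not among the groups, so a change with IFN-β cannot be told apart from a change over those 3 h. Whether the 2 libraries of a group come from separate animals or cultures is not stated either, and the p-values measure only the spread between libraries.

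The respiratory chain passes electrons from NADH through complex I, or from succinate through complex II, to ubiquinone, then through complex III and the carrier cytochrome c to complex IV, which reduces oxygen. Complexes I, III and IV pump protons out of the matrix, and ATP synthase lets them back in to make ATP. All subunits of complex II are encoded in the nucleus, whereas the other complexes need a few proteins from the small circular mitochondrial genome, whose mRNAs are cut from long polycistronic transcripts. Macrophages activated by bacterial products are known for lowering respiration and raising glycolysis.

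The libraries held between 15723437 and 17744844 reads, rebuilt from FPKM and gene length. The deposited scale holds the median gene steady between libraries, so a log2 change of FPKM + 1, the measure used throughout, is relative to the median gene. With TPM, which sets every library to the same sum, the median change of the 14466 genes tested was -0.44 for IFN-β in PBS, -0.29 for IFN-β with spermine, -0.30 for spermine at 0 h and -0.19 for spermine at 3 h. Summed macrophage markers lay between 11204 and 13807 FPKM, while the T cell markers Cd3d, Cd3e and Cd3g and all 4 erythroid markers were at 0 and the 8 neutrophil markers summed to at most 10.2 FPKM. The macrophage sum was highest with spermine at 3 h, at 13677 to 13807 FPKM, against 11204 to 12239 in the PBS groups. The 4 dendritic cell markers summed to 0.325 to 0.336 FPKM in PBS at 0 h, 3.22 to 4.50 in PBS at 3 h, 1.19 in both libraries of spermine at 0 h and 5.68 to 6.54 with spermine at 3 h, and the part of either in the results was not tested. Of the 4 dendritic cell markers only Xcr1 was tested. It rose by 2.06 log2 units with IFN-β in PBS and by 1.74 with IFN-β and spermine. With spermine against PBS it rose by 0.92 at 0 h and 0.59 at 3 h. Single macrophage markers went both ways with spermine at 3 h, such as Cd14 (0.52) and Mertk (-0.64). In bulk RNA, fewer cells of a type and less RNA per cell cannot be told apart.

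The 12 mitochondrial mRNAs lay in 2 ranges of level, and their sequences are shown because 5 of them have near copies in the nucleus. A block of annotated unprocessed pseudogenes at chr1:24611535-24616197 (GRCm38, minus strand) repeats a stretch of the mitochondrial genome from mt-Co1 to mt-Nd4. The first 60 bases of mt-Co2 and of its copy Gm28661 are identical, and those of mt-Nd3 and Gm28438 carry the substitution T3C (position 3 from the 5′ end of the gene, the mitochondrial base first), shown in capitals. mt-Cytb, which has no such copy, is given for comparison. Sequences are from GENCODE M21 transcripts, 5′ to 3′.
mt-Co2: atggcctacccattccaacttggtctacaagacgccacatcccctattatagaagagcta
Gm28661: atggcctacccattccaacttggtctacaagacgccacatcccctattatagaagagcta
mt-Nd3: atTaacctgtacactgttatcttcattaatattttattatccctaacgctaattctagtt
Gm28438: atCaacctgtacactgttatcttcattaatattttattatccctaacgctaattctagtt
mt-Cytb: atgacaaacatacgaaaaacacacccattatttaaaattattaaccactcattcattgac

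Over the whole aligned gene, mt-Co2 and Gm28661 were identical at all 681 bases and mt-Nd3 and Gm28438 differed at 1 of 345. Of all stretches of 100 bases, 97.6% of those of mt-Nd3, 98.5% of mt-Nd4l and 99.5% of mt-Co2 occurred in another annotated transcript, and mt-Atp6 and mt-Co3 were at 99.5% and 99.9%. The other 7 mRNAs shared less, 60.8% for mt-Nd4, 30.8% for mt-Co1, 3.19% for mt-Nd2 and 0 for mt-Cytb, mt-Nd1, mt-Nd5 and mt-Nd6. Levels followed the same division. The 5 mRNAs with a near-complete copy had mean levels between 12.0 and 54.7 FPKM, and the 7 others between 663 and 5238 FPKM. Gm28661 itself was listed at 48.7 FPKM and Gm10925, the copy of mt-Atp6, at 34.2 FPKM, close to mt-Co2 at 54.7 and mt-Atp6 at 28.4 FPKM. The labels do not say how reads that fit more than 1 gene were treated, so the levels and changes of these 5 mRNAs are uncertain, and the part of the copies in them was not tested.

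**Figure D1:**
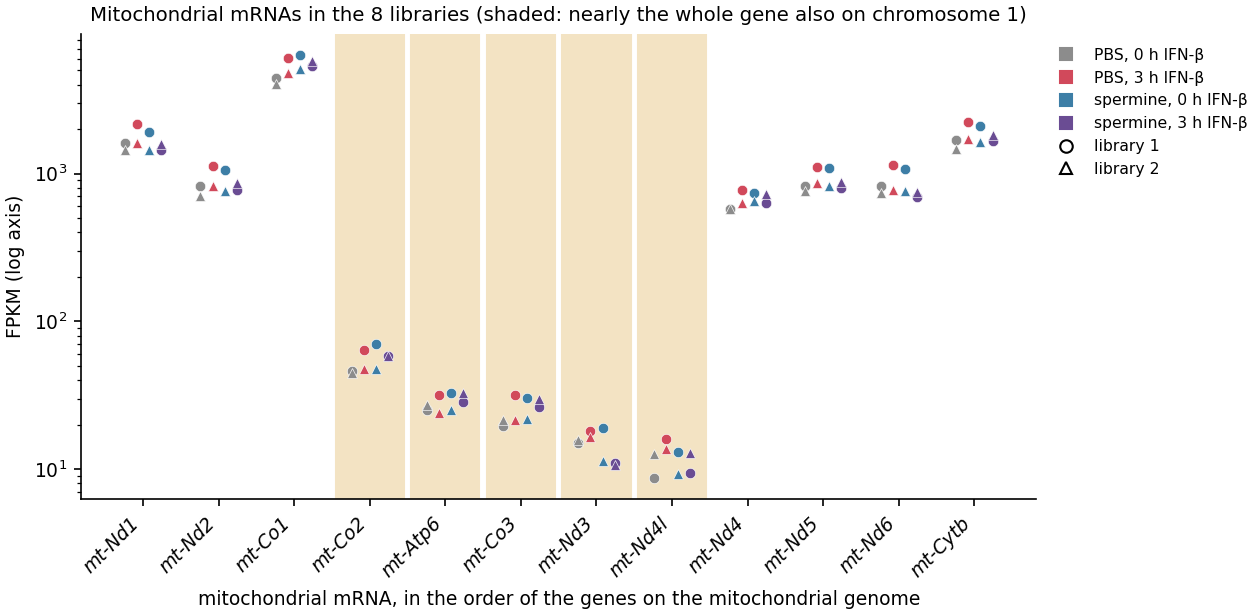
FPKM (log axis) of the 12 mitochondrial mRNAs in genome order, with 1 point per library, coloured by group and shaped by library number. The shaded mRNAs, mt-Co2 to mt-Nd4l, have near-complete copies on chromosome 1 and lie below 100 FPKM, whereas the 7 others lie between 575 and 6357 FPKM.

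mt-Co1, the catalytic subunit of complex IV, was the most abundant member. It stood at 4430 and 4066 FPKM in PBS at 0 h, 6095 and 4784 in PBS at 3 h, 6357 and 5083 with spermine at 0 h, and 5309 and 5780 with spermine at 3 h. Both libraries of PBS at 0 h lay below the other 6. mt-Cytb, the cytochrome of complex III, stood at 1687 and 1473 FPKM in PBS at 0 h, 2230 and 1715 in PBS at 3 h, 2091 and 1644 with spermine at 0 h, and 1654 and 1836 with spermine at 3 h. In PBS at 3 h and with spermine at 0 h all 12 mitochondrial mRNAs were lower in library 2 than in library 1, by a median of 0.38 and 0.42 log2 units. With spermine at 3 h 11 of the 12 were higher in library 2, by a median of 0.15. mt-Nd6, the only mRNA read from the light strand, had its libraries in the same order within these groups. It stood at 819 and 743 FPKM in PBS at 0 h, 1145 and 778 in PBS at 3 h, 1072 and 761 with spermine at 0 h, and 694 and 749 with spermine at 3 h. Since the strand of counting is not stated, RNA of the opposite strand cannot be told apart from mt-Nd6, here or below.

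None of the 12 mitochondrial mRNAs passed the test with IFN-β in PBS, with IFN-β in the presence of spermine, or with spermine at 0 h (limma, adjusted p under 0.05). The shares of all tested genes called in either direction in these comparisons were 49.6%, 41.7% and 41.2%. Their median log2 changes were 0.30, -0.07 and 0.23, beside medians of -0.02, -0.01 and 0.01 over all tested genes. With spermine at 3 h 1 of the 12 fell, where 40.5% of all tested genes were called and 20.6% called lower, and the median was -0.19. That was mt-Nd3, a membrane subunit of complex I, at 15.1 and 15.7 FPKM in PBS at 0 h, 18.1 and 16.5 in PBS at 3 h, 19.1 and 11.4 with spermine at 0 h, and 11.1 and 10.7 with spermine at 3 h. Both libraries of the last group lay below the other 6. Its log2 change was -0.63 ± 0.20 (SE; adjusted p = 0.0449 by limma). It is among the 5 with a copy, and it did not pass in limma voom on the rebuilt reads, or without any 1 of the 4 PBS libraries or of the 2 libraries of spermine at 3 h.

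The IFN-β response of the mitochondrial mRNAs with spermine minus that in PBS had a median of -0.42, beside -0.02 over all tested genes. Of the 12, 11 lay below 0, and none passed the test of the difference (13.6% of all tested genes did, in either direction). The 12 share libraries and moved together between the libraries of most groups, so they are not independent and their number adds no replication. The lowest was mt-Nd6 at -0.60 ± 0.30 (SE; adjusted p = 0.24 by limma), and mt-Atp6 stood highest at 0.01 ± 0.24. The median of the difference stayed below 0 with TPM (-0.28, beside 0.11 over all tested genes) and with quantile normalization (-0.18, beside 0.01). It also did with the GC trend of each library removed (-0.19, beside -0.02) and without any 1 library. The medians of single comparisons were less steady. With TPM the median was -0.17 for IFN-β in PBS and -0.12 for spermine at 0 h, opposite to the deposited scale, and it kept its sign, at -0.40, for both IFN-β with spermine and spermine at 3 h. Without library 1 of PBS at 3 h the median for spermine at 3 h was 0.00, and without library 1 of spermine at 0 h that for IFN-β with spermine was 0.08.

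The ratio of summed mitochondrial to summed nuclear member FPKM does not depend on the scaling between libraries. It was 4.93 and 4.23 in PBS at 0 h, 6.38 and 4.25 in PBS at 3 h, 6.20 and 4.18 with spermine at 0 h, and 3.61 and 4.26 with spermine at 3 h. The 4 groups overlapped, and the libraries of PBS at 3 h and of spermine at 0 h were further apart than the group means. With 2 libraries against 2 an exact permutation test cannot go below p = 0.3333, and none was run. Mitochondrial mRNAs took between 1.27% and 1.98% of the rebuilt reads, and nuclear members between 0.356% and 0.498%.

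Nuclear members spanned levels from 1.19 FPKM for Ndufaf2 to 176 FPKM for Cox7a2l, with a median of 20.0. Complex IV genes had a median level of 32.0 FPKM and complex II genes of 34.8, against 26.7 for ATP synthase, 26.8 for complex III and 16.7 for the 35 complex I subunits. The 8 assembly factors lay lower, at a median of 2.09 FPKM. The most abundant subunits were Cox4i1, which caps the matrix side of complex IV, at a mean of 160 FPKM, and Cox8a at 157, Cox6a1 at 137 and the ATP synthase α subunit Atp5a1 at 125 FPKM.

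With IFN-β in PBS, 14 of the 86 nuclear members rose and 2 fell on the deposited scale, and with TPM 0 rose and 40 fell. Of all tested genes 24.6% were called higher and 25% lower on the deposited scale, and 13.3% and 48.2% with TPM. The TPM shares, here and below, are over 14466 genes and those of the deposited scale over 11421. No difference of these shares from those of the members was tested, here or in the other comparisons. Their changes were small, with a median of 0.11 and none of at least 1 log2 unit, a size that 15.7% of all tested genes reached. Complex I had 4 of 35 members higher, complex II 1 of 4, complex III 2 of 9, complex IV 3 of 12 and ATP synthase 4 of 16, and the medians of these 5 complexes, between 0.08 and 0.18, were between -0.39 and -0.29 with TPM. Fewer than these 14 were called higher whichever library was left out, and fewest without library 2 of PBS at 0 h. Such a refit leaves 1 library in a group. Without a library of PBS at 0 h or at 3 h the share of all tested genes called higher fell as well, but less steeply.

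The largest rise was that of Ndufs3, a core subunit on the arm of complex I that reaches into the matrix. It stood at 14.4 and 16.4 FPKM in PBS at 0 h, 23.8 and 25.8 in PBS at 3 h, 11.9 and 14.2 with spermine at 0 h, and 18.2 and 17.0 with spermine at 3 h. Both libraries of PBS at 3 h lay above all 6 others (log2 change 0.65 ± 0.11 SE, adjusted p = 0.00201 by limma). Ndufs4, an accessory subunit of the same arm whose loss in mice gives a model of Leigh syndrome, went from 4.33 ± 0.506 to 6.94 ± 0.758 FPKM (mean ± SD, n = 2; log2 change 0.57 ± 0.10 SE, adjusted p = 0.00287 by limma). With TPM their changes were 0.21 and 0.19 and no longer passed.

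Other risers were Atp5f1, the peripheral stalk subunit b of ATP synthase (0.47), the complex IV subunits Cox7a2 (0.40), Cox5a (0.38) and Cox7b (0.30), and the iron-sulfur subunit Ndufv2 of complex I (0.38). Uqcrc2, a core protein of complex III, rose by 0.35, Atp5j by 0.32, Uqcrfs1, the Rieske iron-sulfur protein, by 0.25, Ndufb7 by 0.24, Sdhc by 0.21, and Atp5a1 and Atp5b, which form the catalytic head of ATP synthase, by 0.18 each. Atp5j shares 12.7% of its exon bases with Gabpa on the opposite strand, a gene at a mean of 8.98 FPKM that rose by 0.37. The strand of counting is not stated, so reads of both genes cannot be told apart there. Cox7a2, Cox5a, Ndufv2 and Sdhc changed sign with TPM, to -0.06, -0.07, -0.08 and -0.25. The 2 that fell were Atp5s (-0.61 ± 0.13 SE, adjusted p = 0.00614 by limma), from 2.03 ± 0.364 to 0.975 ± 0.0375 FPKM, and the assembly factor Ndufaf4 (-0.39). Atp5s did not pass without library 1 of PBS at 0 h (adjusted p = 0.0511).

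With IFN-β in the presence of spermine, 17 nuclear members rose and 1 fell on the deposited scale, and with TPM 0 rose and 7 fell. Of all tested genes 19.7% were called higher and 22.1% lower on the deposited scale, and 10% and 35.8% with TPM. Complex I held 10 of the 17 (median 0.29), complex IV 4 (median 0.33), ATP synthase 2 (median 0.18) and complex II 1 (median 0.14), whereas none of the 9 complex III genes passed (median 0.24). With TPM the medians were -0.03, 0.01, -0.15, -0.19 and -0.10. Far fewer than these 17 were called higher without library 1 of spermine at 0 h or without either library of spermine at 3 h. The share of all tested genes called higher fell as well in these refits, but less steeply.

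Ndufb6, an accessory subunit in the membrane arm of complex I, had the largest rise that passed. It stood at 10.1 and 11.9 FPKM in PBS at 0 h, 10.3 and 12.8 in PBS at 3 h, 11.5 and 12.6 with spermine at 0 h, and 19.8 and 17.5 with spermine at 3 h. The 2 libraries of spermine at 3 h lay above all 6 others, and the change was 0.59 ± 0.13 (SE; adjusted p = 0.00946 by limma). Ndufb6 shares 39.0% of its exon bases with Smim27 on the opposite strand, and since the strand of counting is not stated, reads of both genes cannot be told apart.

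The next largest rises were in the accessory complex I subunits Ndufa5 (0.52) and Ndufa3 (0.50), in Ndufs4 (0.45), Ndufc2 (0.44) and Ndufs3 (0.41), and in Atp5o, which couples the stalk to the head of ATP synthase (0.39). Cox4i1 rose by 0.36 (adjusted p = 0.0498 by limma; with quantile normalization the value was -0.17), Cox7a2 and Cox5a by 0.35 each, Cox7b by 0.32 and Sdha, the flavoprotein of complex II, by 0.22 (-0.11 with TPM). Ndufb10, Ndufb7, Atp5a1 and Ndufa9 rose by 0.29, 0.28, 0.25 and 0.23. Atp5o shares 47.9% of its exon bases with other annotated genes, so its value is uncertain. Those genes had mean levels of 0, 0.0512 and 0.0765 FPKM, against 13.3 for Atp5o, and their part in its value was not tested.

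The 2 IFN-β comparisons share no library, but the spread of a gene was estimated over all 8 libraries, so their calls are not independent. The genes that rose in both were these 7: Atp5a1, Cox5a, Cox7a2, Cox7b, Ndufb7, Ndufs3 and Ndufs4. They are 50% of the 14 and 41.2% of the 17. Of all tested genes 1850 were called higher in both, 65.9% of those in PBS and 82.3% of those with spermine, and the shares of the members were not tested against these. In the test of the difference between the responses no nuclear member passed, where 5.82% of all tested genes were called higher and 7.75% lower, and 2 had an unadjusted p under 0.05. These were Ndufb6 (0.53 ± 0.18 SE, adjusted p = 0.103 by limma) and Ndufc2 (0.36 ± 0.14 SE, adjusted p = 0.144). The median of this difference over nuclear members was 0.13, and no other tool was run on it except limma voom on the rebuilt reads, which also called 0.

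**Figure D2:**
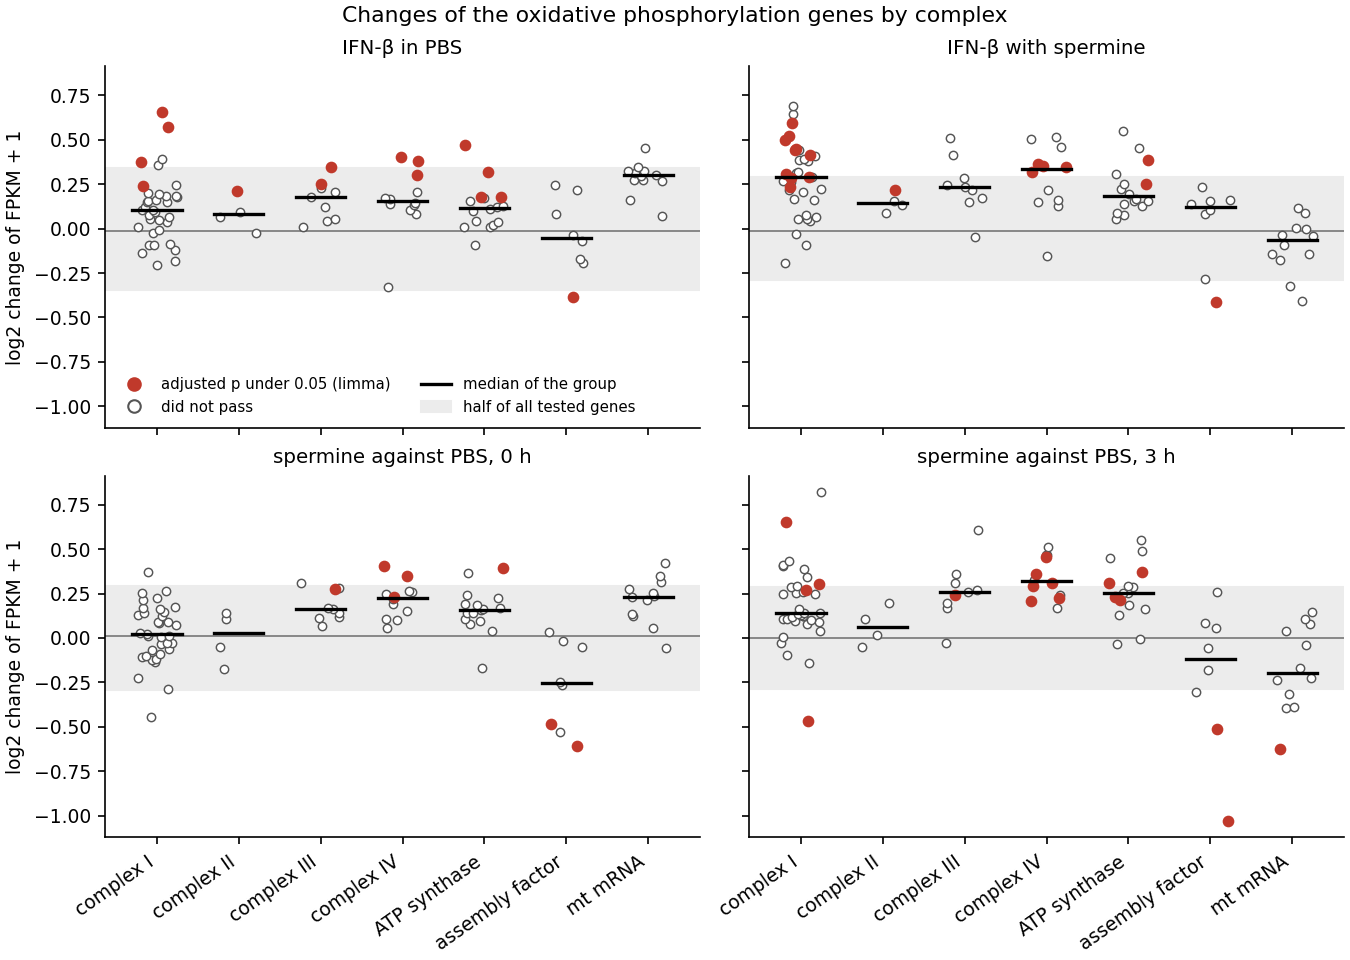
Log2 change of FPKM + 1 for each member (Cox7a2l and Atp5s not drawn), by complex, in 4 comparisons on the deposited scale; red points have an adjusted p under 0.05 (limma), short bars are medians, the grey line is the median of all tested genes and the grey band holds the changes smaller in size than the median size over all tested genes. Complex IV medians lie at 0.16, 0.33, 0.22 and 0.32 and those of the assembly factors at -0.05, 0.12, -0.26 and -0.12; with TPM the complex IV medians are -0.31, 0.01, -0.12 and 0.14.

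With spermine against PBS at 0 h, 5 nuclear members rose and 2 fell on the deposited scale, and with TPM 0 rose and 21 fell. Of all tested genes 22% were called higher and 19.2% lower on the deposited scale, and 8.91% and 36.4% with TPM. Cox7a2, a small complex IV subunit whose relatives are muscle and supercomplex forms, rose most (0.41 ± 0.07 SE, adjusted p = 0.00444 by limma). Its levels were 27.5 and 25.9 FPKM in PBS at 0 h, 34.4 and 36.9 in PBS at 3 h, 35.6 and 35.8 with spermine at 0 h, and 44.1 and 47.8 with spermine at 3 h, so that PBS at 0 h was lowest, spermine at 3 h highest and the other groups overlapped in between. Fewer than these 5 were called higher without library 2 of PBS at 0 h or library 2 of spermine at 0 h. The share of all tested genes called higher fell as well in these refits, but less steeply.

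Atp5b, the catalytic β subunit of ATP synthase, rose by 0.39 ± 0.06 (SE; adjusted p = 0.00233 by limma), from 74.1 ± 0.949 to 97.7 ± 1.98 FPKM (SD, n = 2). Cox5a rose by 0.35, Uqcrfs1 by 0.27 and Cox6b1, which faces the intermembrane space on complex IV, by 0.23. With TPM Atp5b, Cox7a2 and Cox5a changed by 0.05, 0.07 and 0.02, and Uqcrfs1 and Cox6b1 by -0.07 and -0.12, none passing. The only members that fell were 2 assembly factors, Ndufaf7 and Ndufaf4.

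With spermine against PBS at 3 h, 15 nuclear members rose and 3 fell on the deposited scale, and with TPM 1 rose and 5 fell. The shares over all tested genes were 19.9% higher and 20.6% lower on the deposited scale, and 9.53% and 27.2% with TPM. Complex IV had 6 of its 12 genes higher (median 0.32, 0.14 with TPM), ATP synthase 4 of 16 (median 0.25, 0.06 with TPM), complex I 3 of 35 (median 0.14, -0.06 with TPM) and complex III 1 of 9 (median 0.26, 0.06 with TPM), and none of the 4 complex II genes passed (median 0.06, -0.14 with TPM). Fewer than these 15 were called higher without either library of PBS at 0 h. Far fewer were called without library 1 of PBS at 3 h or either library of spermine at 3 h. The share of all tested genes called higher fell as well in these refits, but less steeply.

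Of the members that passed, Ndufb6 again rose most, by 0.65 ± 0.13 (SE; adjusted p = 0.00688 by limma), and it was the 1 member still called higher with TPM (0.48). Cox4i1 rose by 0.45, Atp5b by 0.37, Cox7a2 by 0.36, Cox7a2l by 0.33, Cox5a by 0.31, Atp5g2 by 0.31, Ndufc2 by 0.30 and Ndufa4 by 0.29. Cox4i1 stood at 121 and 141 FPKM in PBS at 0 h, 136 and 160 in PBS at 3 h, 146 and 170 with spermine at 0 h, and 212 and 194 with spermine at 3 h. Only the last group stood clear of the others. Smaller rises were those of Ndufb10 (0.27), Uqcrfs1 (0.24), Atp5h (0.23), Cox6b1 (0.22), Atp5a1 (0.21) and Cox7b (0.21).

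Ndufs3 fell with spermine at 3 h, by 0.47 on the log2 scale (SE 0.11, adjusted p = 0.0127 by limma), the only subunit of a complex among the nuclear members that did. With TPM its change was -0.69 at 3 h and -0.58 at 0 h, and both passed. Its fall did not pass without library 2 of PBS at 3 h (adjusted p = 0.0553) or library 2 of spermine at 3 h (adjusted p = 0.0757). At 0 h the change with spermine was -0.23 (adjusted p = 0.132). The core subunits Ndufs7 and Ndufs8, in the same arm, had log2 changes of 0.12 and 0.41 at 3 h, neither passing.

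The assembly factors held the other falls. Ndufaf4, needed early in complex I assembly, stood at 2.15 and 2.30 FPKM in PBS at 0 h, 1.51 and 1.43 in PBS at 3 h, 1.45 and 1.16 with spermine at 0 h, and 0.695 and 0.760 with spermine at 3 h. The highest group was PBS at 0 h and the lowest spermine at 3 h, without overlap, and the other groups overlapped. Its log2 changes of FPKM + 1 were -0.39 and -0.41 with IFN-β in PBS and with spermine, and -0.49 and -0.51 with spermine at 0 h and 3 h (adjusted p = 0.0194, 0.0183, 0.00982 and 0.00819 by limma). These comparisons share libraries in part and are not independent. The fall with spermine at 3 h passed under all 19 alternative settings. The fall with IFN-β in PBS was lost without any 1 of the 4 PBS libraries (adjusted p from 0.0561 to 0.118), that with IFN-β and spermine without library 1 of spermine at 0 h or either library of spermine at 3 h (0.056 to 0.099), and that with spermine at 0 h without library 2 of PBS at 0 h (0.0733) or library 2 of spermine at 0 h (0.0508). Ndufaf4 lies near the minimum level, where adding 1 to FPKM understates a change.

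Ndufaf7, a methyltransferase needed for complex I assembly, fell with spermine at 0 h, from 2.98 ± 0.194 to 1.61 ± 0.281 FPKM (SD, n = 2; log2 change -0.61 ± 0.10 SE, adjusted p = 0.00385 by limma), and passed under all 19 alternative settings. At 3 h its change was -0.30 (adjusted p = 0.0568). Ndufaf1, which joins the membrane arm while it is built, had the largest change of any member, -1.03 ± 0.25 with spermine at 3 h (SE; adjusted p = 0.0151 by limma). It stood at 6.84 and 5.42 FPKM in PBS at 0 h, 8.59 and 6.10 in PBS at 3 h, 4.42 and 3.44 with spermine at 0 h, and 2.24 and 4.04 with spermine at 3 h, and all 4 spermine libraries lay below all 4 PBS libraries. It did not pass without library 1 of PBS at 3 h (adjusted p = 0.0781) or library 1 of spermine at 3 h (adjusted p = 0.0765). It was the only member to reach a size of 1 in any comparison. Of all tested genes 7.56% did so here, 9.7% with IFN-β and spermine, 6.93% with spermine at 0 h and 5.01% in the difference of the responses. Of the remaining assembly factors Ndufaf2, Ndufaf3, Ndufaf5, Ndufaf6 and Ndufaf8, none passed in any comparison.

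The promoters of 3 members whose change was described above are shown for the binding motifs of 3 factors known to act on nuclear respiratory genes. A match to the NRF1 palindrome, to GABP and other ETS factors (CCGGAAGT) or to YY1 (AAGATGGCG), on either strand, is in capitals. Each window runs from 250 bases before to 50 after the start of the gene, from RefSeq on GRCm38, and is printed 5′ to 3′ along the gene. Ndufaf4 lies at chr4:24897833-24898132 on the plus strand, Ndufs3 at chr2:90904672-90904971 and Ndufs4 at chr13:114388045-114388344, both on the minus strand.
Ndufaf4: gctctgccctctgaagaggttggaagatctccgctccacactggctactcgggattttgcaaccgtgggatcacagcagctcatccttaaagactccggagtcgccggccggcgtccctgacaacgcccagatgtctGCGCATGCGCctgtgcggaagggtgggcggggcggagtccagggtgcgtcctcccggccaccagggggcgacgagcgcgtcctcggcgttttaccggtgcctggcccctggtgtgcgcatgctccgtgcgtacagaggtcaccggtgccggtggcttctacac
Ndufs3: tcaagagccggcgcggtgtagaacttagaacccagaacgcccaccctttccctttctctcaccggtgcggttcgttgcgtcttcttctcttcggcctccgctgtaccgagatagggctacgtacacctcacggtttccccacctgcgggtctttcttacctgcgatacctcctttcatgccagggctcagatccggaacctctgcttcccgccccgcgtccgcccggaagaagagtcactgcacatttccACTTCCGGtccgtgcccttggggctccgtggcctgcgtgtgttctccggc
Ndufs4: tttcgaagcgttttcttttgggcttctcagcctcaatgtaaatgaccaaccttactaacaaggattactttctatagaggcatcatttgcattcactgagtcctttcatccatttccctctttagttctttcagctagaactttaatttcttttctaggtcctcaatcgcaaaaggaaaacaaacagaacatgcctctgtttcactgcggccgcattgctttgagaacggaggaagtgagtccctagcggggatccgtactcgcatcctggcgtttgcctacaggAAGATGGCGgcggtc

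Promoter entries were matched for 70 of the 86 nuclear members. The NRF1 motif was in 19 of them (27.1%), against 12.8% of the 7839 promoters of tested protein-coding genes. The YY1 motif was in 8 (11.4%, against 4.20%) and the GABP motif in 5 (7.14%, against 10.4%). Any of these motifs was in 30 (42.9%, against 25.2%). The printed promoters each hold a match and do not stand for changed members without one, such as Cox5a, Cox7a2 and Ndufb6. Ndufaf4 had 1 NRF1 match, Ndufs3 1 GABP match and Ndufs4 1 YY1 match. A match is a description of these letters and not a site of binding.

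Complex II, with no mitochondrially encoded subunit, had 1 of 4 genes higher in each IFN-β comparison and none called with spermine on the deposited scale. With TPM all 4 fell with IFN-β in PBS (median -0.39) and 3 fell with spermine at 0 h (median -0.32), and with quantile normalization 3 and 2 fell. Sdhd, a membrane anchor, stood between 50.2 and 60.3 FPKM in all 8 libraries, and Sdhb, the iron-sulfur subunit, between 30.1 and 41.2 FPKM, and neither passed in any comparison on the deposited scale. Sdhc, the other anchor, stood at 18.4 and 19.9 FPKM in PBS at 0 h, 22.4 and 22.1 in PBS at 3 h, 20.4 and 21.9 with spermine at 0 h, and 22.8 and 22.4 with spermine at 3 h. Its rise with IFN-β in PBS (adjusted p = 0.0399 by limma) was lost without any 1 of the 4 PBS libraries or of the 2 libraries of spermine at 3 h, and it turned into a fall with TPM (-0.25, adjusted p = 0.014). Sdha, at 30.1 and 31.0 FPKM with spermine at 0 h and 36.0 and 35.5 with spermine at 3 h, rose in that comparison only, with an adjusted p of 0.0442 by limma. The call was lost without either library of PBS at 0 h or any 1 of the 4 spermine libraries (adjusted p from 0.0568 to 0.168).

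Among the isoforms, the ubiquitous forms were measured and most of the restricted ones were near or at 0. Exceptions were Cox6a2, at 0.870 FPKM just below the minimum for members, and Cox7a1. Cox4i1 had a mean of 160 FPKM and Cox4i2, the form of lung and low oxygen, of 0.0794 FPKM. Cox6b2 lay at 0.360, Cox8b at 0.0248 and Ndufa4l2, a hypoxia-induced relative of Ndufa4, at 0.0328 FPKM, and Cox7b2, Cox8c and the second table entry named Atp5o were listed at 0 in every library. Cox7a1, the heart and muscle form, was a member at 1.49 FPKM, but its libraries lay between 0.804 and 3.16 FPKM with the groups overlapping, and it passed in no comparison.

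AA467197 is a relative of Ndufa4 that lies outside the naming rule, known as Nmes1 and as a replacement of Ndufa4 in complex IV of inflamed cells. It stood at 3.05 and 2.64 FPKM in PBS at 0 h, 60.6 and 56.2 in PBS at 3 h, 2.96 and 3.15 with spermine at 0 h, and 83.6 and 76.8 with spermine at 3 h. Its rise was 3.95 ± 0.09 with IFN-β in PBS (SE; adjusted p = 9.28e-08 by limma) and 4.32 ± 0.09 with spermine (adjusted p = 8.91e-08), and the difference of the responses, 0.37 ± 0.12, did not pass (adjusted p = 0.0919). Ndufa4 stood at 24.0 and 24.3 FPKM in PBS at 0 h, 25.7 and 27.9 in PBS at 3 h, 29.0 and 27.4 with spermine at 0 h, and 35.8 and 30.4 with spermine at 3 h. With IFN-β Ndufa4 changed by 0.14 and 0.22 (adjusted p = 0.237 and 0.0988), so that the level of AA467197 per length was below that of Ndufa4 at 0 h and above it at 3 h in every library.

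**Figure D3:**
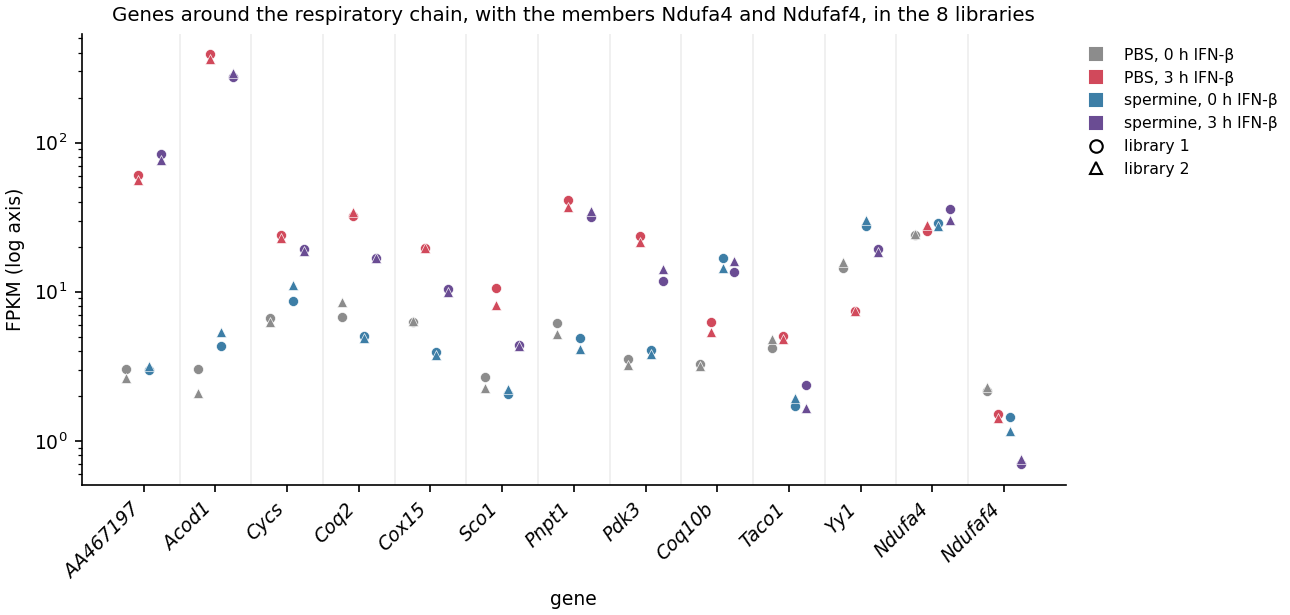
FPKM (log axis) of 11 genes around the respiratory chain and of the members Ndufa4 and Ndufaf4, 1 point per library, coloured by group and shaped by library number. AA467197 lies between 2.64 and 3.15 FPKM at 0 h and between 56.2 and 83.6 FPKM at 3 h, whereas Ndufa4 lies between 24.0 and 35.8 FPKM throughout.

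Larger changes were measured among genes of and around the chain that lie outside the naming rule. Of all tested genes 24.6% were called higher and 25% lower with IFN-β in PBS, and 19.7% and 22.1% with IFN-β and spermine. With spermine against PBS the shares were 22% and 19.2% at 0 h, and 19.9% and 20.6% at 3 h. The counts of the gene lists that follow were not tested against these shares. Of 37 tested assembly factors outside the naming rule, 8 rose and 8 fell with IFN-β in PBS, 10 and 7 with IFN-β and spermine, 2 and 11 with spermine at 0 h, and 1 and 12 with spermine at 3 h. The largest rises with IFN-β in PBS were those of Cox18, an insertase for mt-Co2 (1.97), Sco1, a copper chaperone of complex IV (1.57), and Cox15, which makes haem A (1.504). With spermine Taco1, needed to translate mt-Co1, fell by 0.96 on the log2 scale at 0 h and by 0.99 at 3 h. At 3 h Sco1 and Cox15 also fell, by 0.94 and 0.90.

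Among 27 electron carriers, transporters and related genes, 6 rose and 4 fell with IFN-β in PBS, 3 and 1 with IFN-β and spermine, 10 and 5 with spermine at 0 h, and 9 and 5 with spermine at 3 h. Cycs, cytochrome c itself, went from 6.47 ± 0.265 to 23.4 ± 0.776 FPKM with IFN-β in PBS (log2 change 1.71, adjusted p = 1.99e-05 by limma) and from 9.88 ± 1.74 to 19.0 ± 0.506 FPKM with spermine (0.89). Coq2, which attaches the tail of ubiquinone, rose by 2.00 and 1.58. Coq10b, which binds ubiquinone, rose with spermine by 1.97 at 0 h and 1.22 at 3 h.

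Of 26 tested genes that copy, process or read the mitochondrial genome, 5 rose and 8 fell with IFN-β in PBS, 4 and 11 with IFN-β and spermine, 5 and 5 with spermine at 0 h, and 4 and 5 with spermine at 3 h. Pnpt1, an RNA-degrading phosphorylase of mitochondria, rose by 2.59 and 2.64 with IFN-β. Tfam, which packs the mitochondrial genome and starts its transcription, fell by 0.74 with spermine at 3 h. Of 24 tested genes of the tricarboxylic acid cycle and pyruvate entry, 7 rose and 2 fell with IFN-β in PBS, 2 and 2 with IFN-β and spermine, 7 and 2 with spermine at 0 h, and 4 and 3 with spermine at 3 h. Acod1, whose product itaconate inhibits complex II, reached 391 and 365 FPKM in PBS at 3 h from 3.03 and 2.08 at 0 h. Pdk3, a kinase that shuts pyruvate dehydrogenase, rose by 2.43 in PBS and by 1.496 with spermine.

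Of 8 tested regulators of respiratory genes, 2 rose and 2 fell in each IFN-β comparison and 3 rose and 0 fell in each spermine comparison. Yy1 stood at 14.3 and 15.9 FPKM in PBS at 0 h, 7.37 and 7.47 in PBS at 3 h, 27.6 and 30.4 with spermine at 0 h, and 19.4 and 18.5 with spermine at 3 h. It fell by 0.93 and 0.59 on the log2 scale with IFN-β and rose by 0.90 and 1.24 with spermine. Nrf1 passed in no comparison. Of 76 mitochondrial ribosomal protein genes, 9 rose and 8 fell with IFN-β in PBS, 11 and 4 with IFN-β and spermine, 3 and 15 with spermine at 0 h, and 4 and 9 with spermine at 3 h, with medians of -0.02, 0.09, -0.13 and -0.03. The 81 cytosolic ones had 6, 27, 27 and 51 higher and 2, 2, 0 and 0 lower, with medians of 0.14, 0.26, 0.26 and 0.40, beside nuclear member medians of 0.11, 0.22, 0.10 and 0.22. These values are on the deposited scale.

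The sign of the nuclear median changed with the scale for IFN-β in PBS, for IFN-β with spermine and for spermine at 0 h. On the deposited scale the median log2(FPKM + 1) of the nuclear members was lowest in library 1 of PBS at 0 h (4.16) and highest in library 1 of spermine at 3 h (4.67). With TPM it was highest in library 2 of PBS at 0 h (6.23) and lowest in library 1 of PBS at 3 h (5.73). The FPKM sum over all genes, by which TPM divides, was between 248254 and 253576 in PBS at 0 h, 345825 and 351671 in PBS at 3 h, 316283 and 321894 with spermine at 0 h, and 400534 and 404833 with spermine at 3 h. Relative to the median of the 14466 genes tested with TPM, a wider set than on the deposited scale, the nuclear members still lay above it, with medians of -0.34, -0.10, -0.22 and 0.01 against -0.44, -0.29, -0.30 and -0.19. With quantile normalization they lay below it for IFN-β in PBS (-0.19 against -0.16) and spermine at 0 h (-0.10 against -0.03), and above it for IFN-β with spermine (0.01 against -0.12) and spermine at 3 h (0.11 against -0.01).

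**Figure D4:**
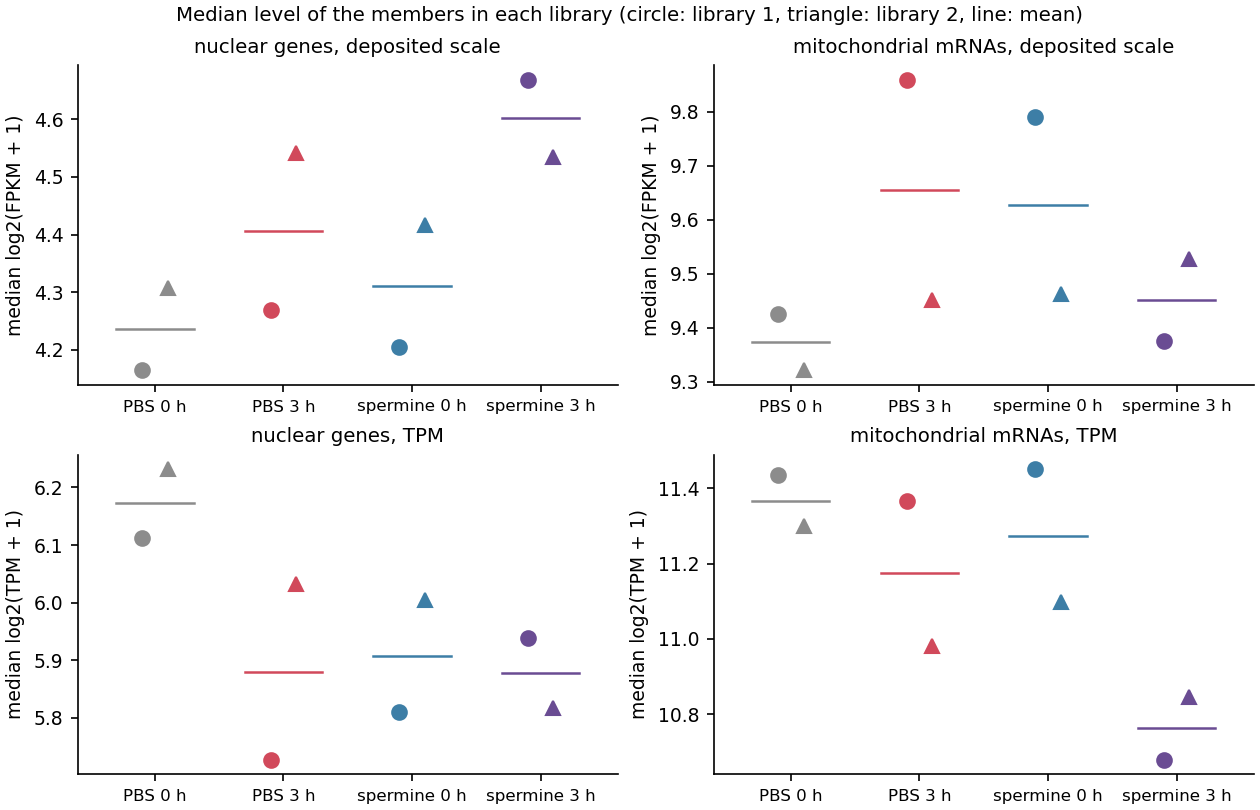
Median level of the 86 nuclear and 12 mitochondrial members in each library on the deposited scale (top, log2 of FPKM + 1) and as TPM (bottom, log2 of TPM + 1); points are libraries and lines the mean of 2. The nuclear median runs from 4.16 to 4.67 with PBS at 0 h lowest on the deposited scale, and from 5.73 to 6.23 with PBS at 0 h highest as TPM.

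Libraries of a group differed from each other in a way that moved with base composition. The Spearman correlation between GC content and the difference of library 2 minus library 1 over the 86 nuclear members, which share libraries and are not independent, was 0.43 in PBS at 0 h, 0.48 in PBS at 3 h, 0.42 with spermine at 0 h and -0.43 with spermine at 3 h. Over all 11421 tested genes it was 0.42, 0.59, 0.54 and -0.22 in the same order, so it was not particular to the members. With length in place of GC the nuclear members gave -0.02, -0.45, -0.36 and 0.25. Ndufa2, an accessory complex I subunit, stood at 38.9 and 68.6 FPKM in PBS at 0 h, 33.8 and 66.3 in PBS at 3 h, 37.4 and 72.5 with spermine at 0 h, and 98.9 and 72.4 with spermine at 3 h. Library 2 was the higher in 3 groups and library 1 in the last. Its change of 0.82 with spermine at 3 h, the largest rise of any member in that comparison by size, did not pass (SE 0.44, adjusted p = 0.18 by limma). Ndufs6 behaved alike in the first 3 groups, at 8.46 and 13.9, 8.86 and 17.9, and 6.86 and 14.6 FPKM. With the GC trend of each library removed, an alternative added after the data were seen, the nuclear members called higher numbered 23 with IFN-β in PBS, 31 with IFN-β and spermine, 9 with spermine at 0 h and 17 with spermine at 3 h. The shares of all tested genes called higher were then 28.8%, 23.7%, 24.7% and 22.4%. The part of base composition or of length in the single results was not tested further.

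**Figure D5:**
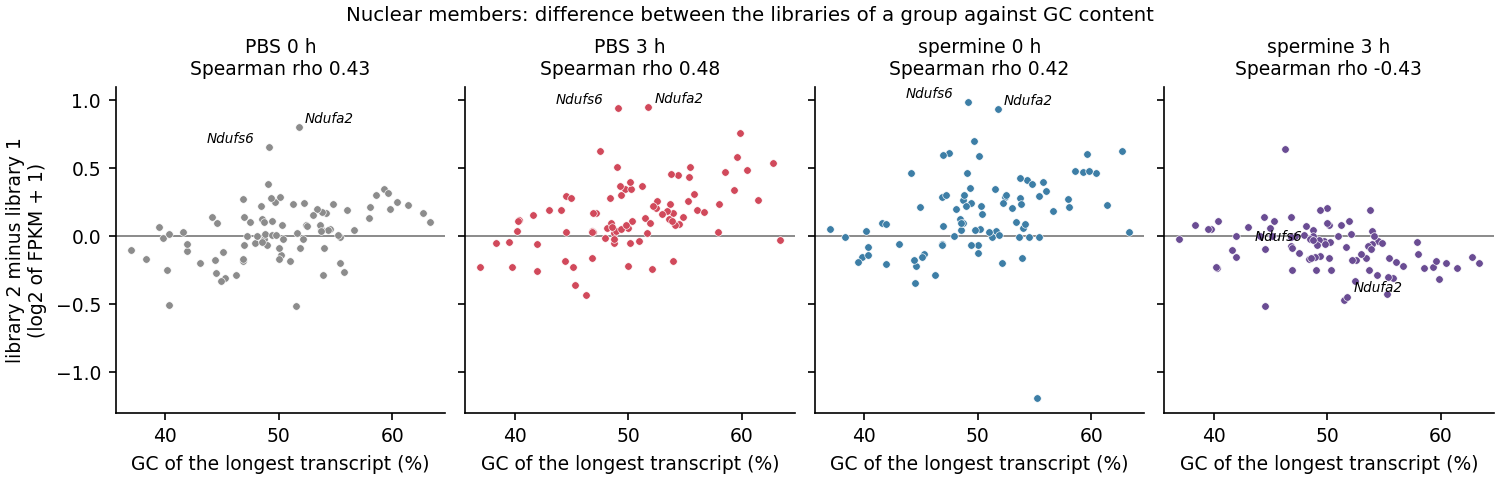
Difference between the 2 libraries of a group (library 2 minus library 1, log2 of FPKM + 1) against GC content for the 86 nuclear members, 1 panel per group. The Spearman correlation is 0.43, 0.48 and 0.42 in the first 3 groups and -0.43 with spermine at 3 h, and Ndufa2 and Ndufs6 are labelled.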

How the data were processed

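RNA was measured by poly(A) RNA-seq in 8 libraries. Per the submitters' processing notes, CASAVA 1.8, fastp, HISAT2 2.0.5, featureCounts 1.5.0-p3 and DESeq2 1.20.0 were used with GRCm38, without a stated role for each. The labels state neither strand nor the treatment of reads that fit several genes. The authors deposited 1 table of FPKM per gene. FPKM times length gave whole reads (100% of values within 0.001 of a whole number), from 15723437 to 17744844 per library. These were used in limma voom and for the shares of reads.

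The labels give PBS as the control, whereas the series text names DMSO, and the extraction protocol speaks of blood. The sample labels were followed.

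The 11421 genes that reached 1 FPKM in 2 or more libraries were tested. With TPM the same minimum was applied to the TPM values, so 14466 genes were tested, and 14583 with TPM over nuclear genes. limma 3.58.1 (R 4.3.3) modelled log2(FPKM + 1) by 4 group means over 8 libraries with an intensity trend, leaving 4 residual degrees of freedom. The 5 comparisons were each adjusted by Benjamini-Hochberg over these genes, with a threshold of 0.05. A log2 change of low genes is understated by the pseudocount of 1. On simulated data for IFN-β in PBS (10929 genes), 62% of genes changed 1.5-fold and 100% of genes changed 2-fold were recovered, and 0.121% of unchanged genes were called. The simulation changed 50 genes per fold, gave every gene the same fixed dispersion and held no effect of base composition. The real libraries differ from this, so these rates need not hold for them.

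Named were every mitochondrial member, the 4 Sdh genes, the isoforms, up to 6 nuclear risers and fallers per comparison, and up to 3 genes per other list and comparison. The further members called, and Ndufa2, Ndufs6, Ndufs7, Ndufs8 and Tfam, were named after their values were seen. Members and lists were chosen with earlier results of these data known. Tables were handled with Python 3.11.15 and pandas 2.3.3, figures with matplotlib 3.10.9. The values of 1 member called higher are not reported here.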

Additional observations from a re-analysis of the deposited data

Results flagged for a closer look

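None of the members met a rule for a closer look, and 8 genes outside the naming rule did, among them cytochrome c (Cycs). Their IFN-β response differed between spermine and PBS in the interaction test (limma, adjusted over all tested genes). They come from the lists above, which held 27, 37, 26, 8 and 24 tested genes. Of all tested genes 13.6% passed this test in either direction, and the count of 8 was not tested against that share. The response was weaker with spermine for Cycs (-0.82, adjusted p = 0.0187), Pdss1, which makes the tail of ubiquinone (-0.82, 0.03), Coq10b (-0.75, 0.0313), Sco1 (-0.80, 0.0333), Acod1 (-1.14, 0.0151) and Pdk3 (-0.93, 0.0099). For Coq10b the response itself was 0.68 in PBS and -0.07 with spermine. The difference was above 0 for Coa6, an assembly factor of complex IV (0.56, adjusted p = 0.0381), and Pdk2, a kinase of pyruvate dehydrogenase (0.49, 0.0337). Of the 8, Pdk3 passed under every alternative tried. The others were lost under at least 1, among them Acod1 without library 1 of PBS at 3 h (0.0504), Cycs with the GC trend removed (0.0859), Sco1 with TPM (0.0736), Coq10b with TPM (0.0536), Coa6 and Pdk2 in limma voom (0.225 and 0.0811) and Pdss1 without library 2 of PBS at 0 h (0.12).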

How the results depend on the processing

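For IFN-β in PBS the nuclear members called higher were 0 with TPM, 0 with TPM over nuclear genes, 2 with quantile normalization, 23 with the GC trend removed and 9 when only the groups compared were fitted, and those lower were 40, 44 and 19 with the first 3 of these and 1 without the filter. The mitochondrial median was -0.17, -0.18 and -0.34 with these 3 scalings. For IFN-β with spermine the members higher were 0 with TPM, 0 with TPM over nuclear genes, 3 with quantile normalization and 31 with the GC trend removed, and those lower were 7, 7, 6 and 0, and 0 without the filter or with only the groups compared. The mitochondrial median was -0.40, -0.42 and -0.50 with the 3 scalings. For spermine at 0 h the members higher were 0, 0 and 0 with the 3 scalings and 9 with the GC trend removed, those lower 21, 22, 9 and 4, and the mitochondrial median -0.12, -0.12 and -0.15 with the scalings. For spermine at 3 h the members higher were 1, 1 and 2 with the 3 scalings, 9 without the filter and 9 without the intensity trend, those lower 5 and 5 with both TPM scalings, with mitochondrial medians of -0.40 and -0.41. For the difference of the responses 1 member was higher with quantile normalization, and the mitochondrial median was -0.18 there and -0.19 with the GC trend removed. With quantile normalization 20.4%, 15.1%, 17.8% and 17% of all tested genes were called higher in the first 4 comparisons and 7.88% in the difference. Those called lower were 35.4%, 29.9%, 21% and 20.1% in the first 4. The cause of these differences between settings was not tested.

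Single values that changed sign were, for IFN-β in PBS with TPM and with TPM over nuclear genes, Ndufv2 (-0.076 and -0.083), Cox5a (-0.068 and -0.074), Cox7a2 (-0.058 and -0.065), Sdhc (-0.25 and -0.26, and -0.10 with quantile normalization) and Gabpa (-0.060 and -0.067). For IFN-β with spermine they were Sdha (-0.11 and -0.13, and -0.065 with quantile normalization) and Cox4i1 (-0.17 with quantile normalization), and for spermine at 0 h Cox6b1 (-0.12 and -0.12, and -0.14 with quantile normalization) and Uqcrfs1 (-0.066 and -0.066).

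Leaving out each library in turn leaves 1 library in a group, so only medians are given here. The mitochondrial medians ran from 0.10 to 0.51 for IFN-β in PBS, from -0.27 to 0.085 for IFN-β with spermine and from 0.028 to 0.43 for spermine at 0 h. They ran from -0.38 to 0.004 for spermine at 3 h and from -0.60 to -0.22 for the difference. The numbers of members called moved up or down in these refits, as did the shares of all tested genes called.

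Library numbers recur in the labels, but same-numbered libraries did not deviate together in every pair of groups, so they were not treated as pairs. Between PBS at 0 h, PBS at 3 h and spermine at 0 h the correlations were 0.23, 0.25 and 0.37 over all tested genes and 0.60 to 0.67 over the nuclear members, and with spermine at 3 h they were -0.06, -0.09 and -0.13, and -0.53 to -0.25. With the replicate block 14, 20, 6, 18 and 0 nuclear members were higher in the order above and 2, 1, 2, 3 and 0 lower, and all 107 named changes kept their call. Of all tested genes 25.8%, 21%, 23.3%, 21.8% and 6.73% were then higher and 26.4%, 23.1%, 20.4%, 21.7% and 9.14% lower. With the numbers of spermine at 3 h crossed in the block, added after the data were seen, 48, 17, 38 and 4 were higher for IFN-β with spermine, spermine at 0 h, spermine at 3 h and the difference, where 24.8%, 27.3%, 26.2% and 11% of all tested genes were. For spermine at 0 h 8 members were lower, where 23.6% of all tested genes were. The crossing matches the negative correlations above, so its larger counts follow from these same data and lend no weight to any call. Of the 107 named changes, 52 kept direction and call under every alternative run, 19 for changes within a comparison and 18 for the 8 differences of responses.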
